A study of Arabidopsis thaliana with 29 samples.

Results

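The glutamate receptor-like (GLR) genes of *A. thaliana* encode plant homologues of the ionotropic glutamate receptors of animals. They form cation channels that amino acids can open and that let Ca2+ into the cytosol. Of the family, *GLR3.3* and *GLR3.6* are known for carrying electrical and Ca2+ signals out of wounded leaves, upstream of jasmonate, the hormone of wounding. *GLR2.7*, *GLR2.8* and *GLR2.9* are known for Ca2+ entry during the response to microbial patterns, *GLR3.5* for Ca2+ entry in guard cells and germinating seeds, and *GLR1.4* as a channel that amino acids open when it is expressed in frog oocytes.

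The genes described here are those whose symbol in the annotation of the array starts with GLR and a number and that a probe set names alone. There were 7 of them among the 22589 genes tested, each read by 1 probe set. The RefSeq table lists 20 GLR genes, and those not given below are not analysed here. In RefSeq (TAIR10.1) the 7 genes are *GLR1.4* (AT3G07520), *GLR2.7* (AT2G29120), *GLR2.8* (AT2G29110), *GLR2.9* (AT2G29100), *GLR3.3* (AT1G42540), *GLR3.5* (AT2G32390) and *GLR3.6* (AT3G51480). *GLR2.8* lies directly between *GLR2.9* and *GLR2.7*, and no other protein-coding gene separates these 3. Probe sets of such related genes can pick up each other's transcripts, which was not tested.

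RNA came from whole seedlings of *PV-NES*, *PV-NLS* and wild type (WT), all in the Col-0 ecotype. *PV-NES* seedlings carry parvalbumin, a Ca2+-binding protein, with a nuclear export signal, so that Ca2+ in the cytosol is buffered, and *PV-NLS* seedlings carry parvalbumin with a nuclear localisation signal, so that Ca2+ in the nucleus is buffered. Seedlings 3 days old were placed for 5 days on medium with 10 µM abscisic acid (ABA), 50 µM methyl jasmonate (MeJA), 1 µM ACC, the precursor of ethylene, or no hormone. The 29 arrays form 12 groups. Every treatment had 3 lines of *PV-NES* (1, 7, 11) and 3 of *PV-NLS* (4, 5, 8), whereas WT had 1 array per hormone and 2 control arrays. The 3 replicates of a transgenic group are thus 3 insertion lines, and a WT response rests on 1 treated array.

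All 29 arrays had like distributions, with median signals between 5.27 and 5.40 on the log2 scale, and arrays of a group correlated with r between 0.982 and 0.997 across genes. As a check of the MeJA treatment, 3 genes from a list of jasmonate synthesis and wound response genes were measured under their own names, and all 3 rose after MeJA in *PV-NES*, *PV-NLS* and WT (limma, adjusted p at most 0.00425). Averaged over the genotypes, the log2 fold change was 8.18 ± 0.16 (SE) for the thionin gene *THI2.1*, 7.05 ± 0.17 for the jasmonate-induced dioxygenase gene *JRG21* and 0.87 ± 0.11 for *OPCL1*, a ligase of jasmonate synthesis.

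The GLR genes were dim to middling on these arrays. *GLR3.3* had the highest mean signal, 5.54 on the log2 scale, brighter than 52.8% of all genes, and it was above the median of the array on 22 of 29 arrays. *GLR3.6*, with a mean of 5.29, was above it on 10 arrays. *GLR3.5* (4.68), *GLR1.4* (3.61), *GLR2.7* (3.01), *GLR2.8* (2.32) and *GLR2.9* (2.21) were below it on all 29 arrays. *GLR2.8* and *GLR2.9* were brighter than 8.36% and 6.12% of genes, so their probe sets lay close to the floor of the array. These signals are no measure of which gene has more transcript, since probe sets differ in brightness. A change in a dim signal can be understated, which was not tested here.

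**Figure D1:**
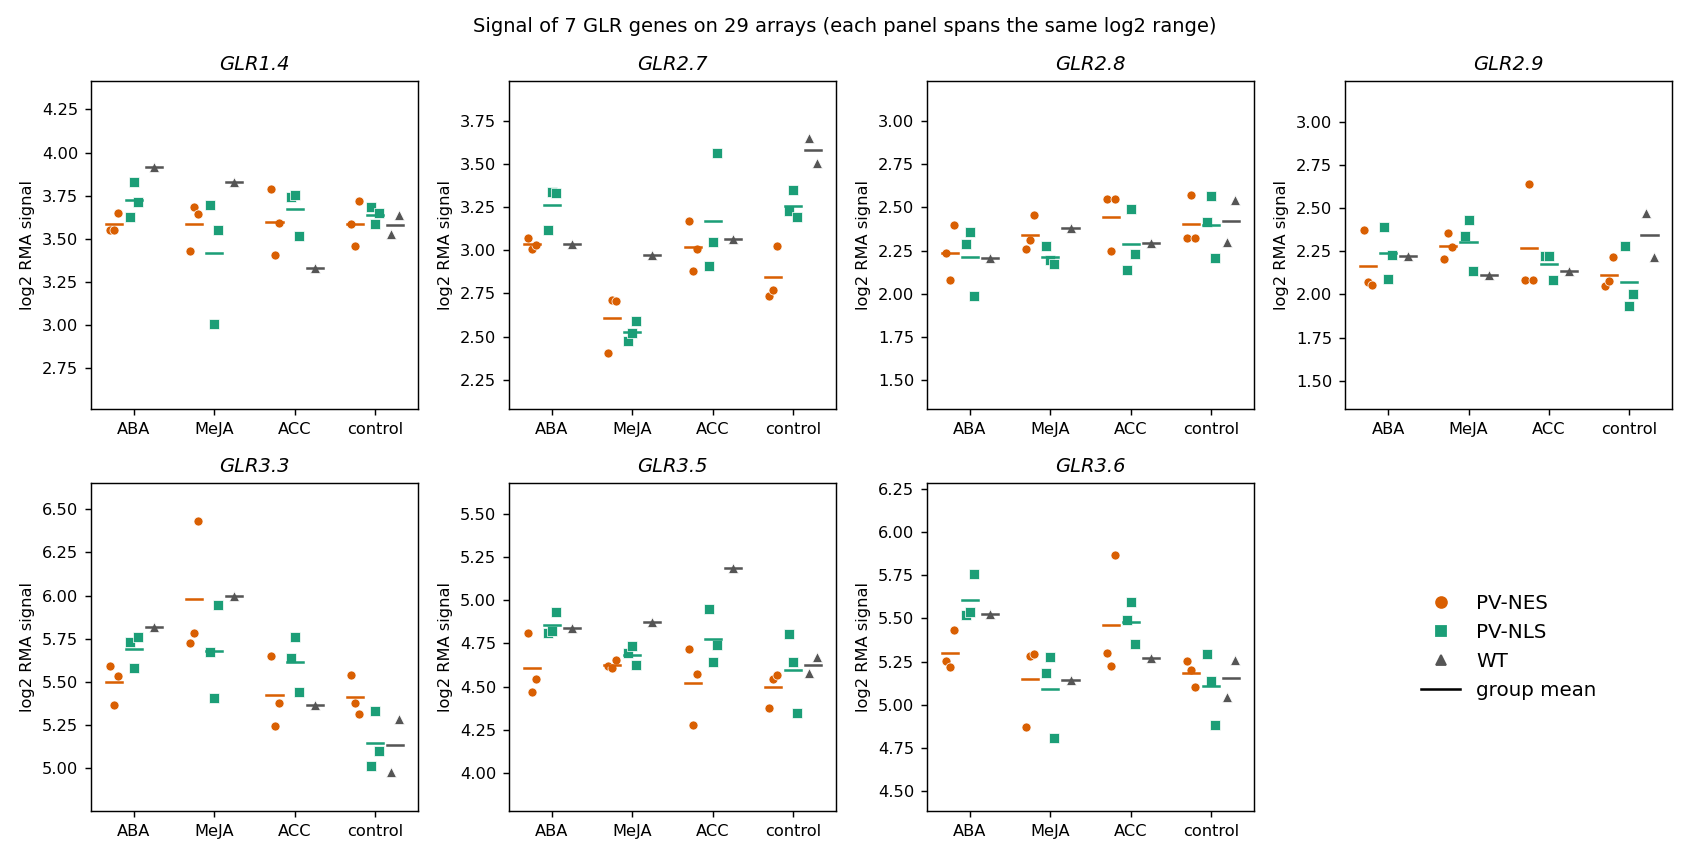
Log2 RMA signal (y axis) of each GLR gene on every array, by treatment (x axis) and genotype (symbol and colour), with a bar at each group mean and the same span of the y axis in all panels. The highest *GLR3.3* value, 6.43, and the lowest *GLR2.7* value, 2.41, were both on MeJA arrays of *PV-NES*, whereas *GLR2.8* and *GLR2.9* stayed between 1.93 and 2.64 on all arrays.

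The responses were small. Of 63 tests, 7 genes by 3 hormones by 3 genotypes, 8 passed at an adjusted p under 0.05 (limma, Benjamini-Hochberg over all genes), 6 of them higher and 2 lower after the hormone. That is 12.7% of the tests on GLR genes, beside 16.2% of the tests on all genes in the same 9 comparisons. None of the 63 was past the 2-fold change that the methods of the study required. An unadjusted p under 0.05 was found in 14 of the 63 (22.2%), beside 29.1% over all genes. The largest response was 0.87 on the log2 scale, so the t-test of the methods could give no call past 2-fold either. The share of all genes past 2-fold was 2.95% in *PV-NES*, 3.93% in *PV-NLS* and 4.44% in WT after ABA, 4.84% in *PV-NES*, 5.58% in *PV-NLS* and 5.06% in WT after MeJA, and 0.682% in *PV-NES*, 1.12% in *PV-NLS* and 5.41% in WT after ACC. All 8 calls fell on 4 genes, *GLR3.3*, *GLR2.7*, *GLR3.6* and *GLR3.5*.

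**Figure D2:**
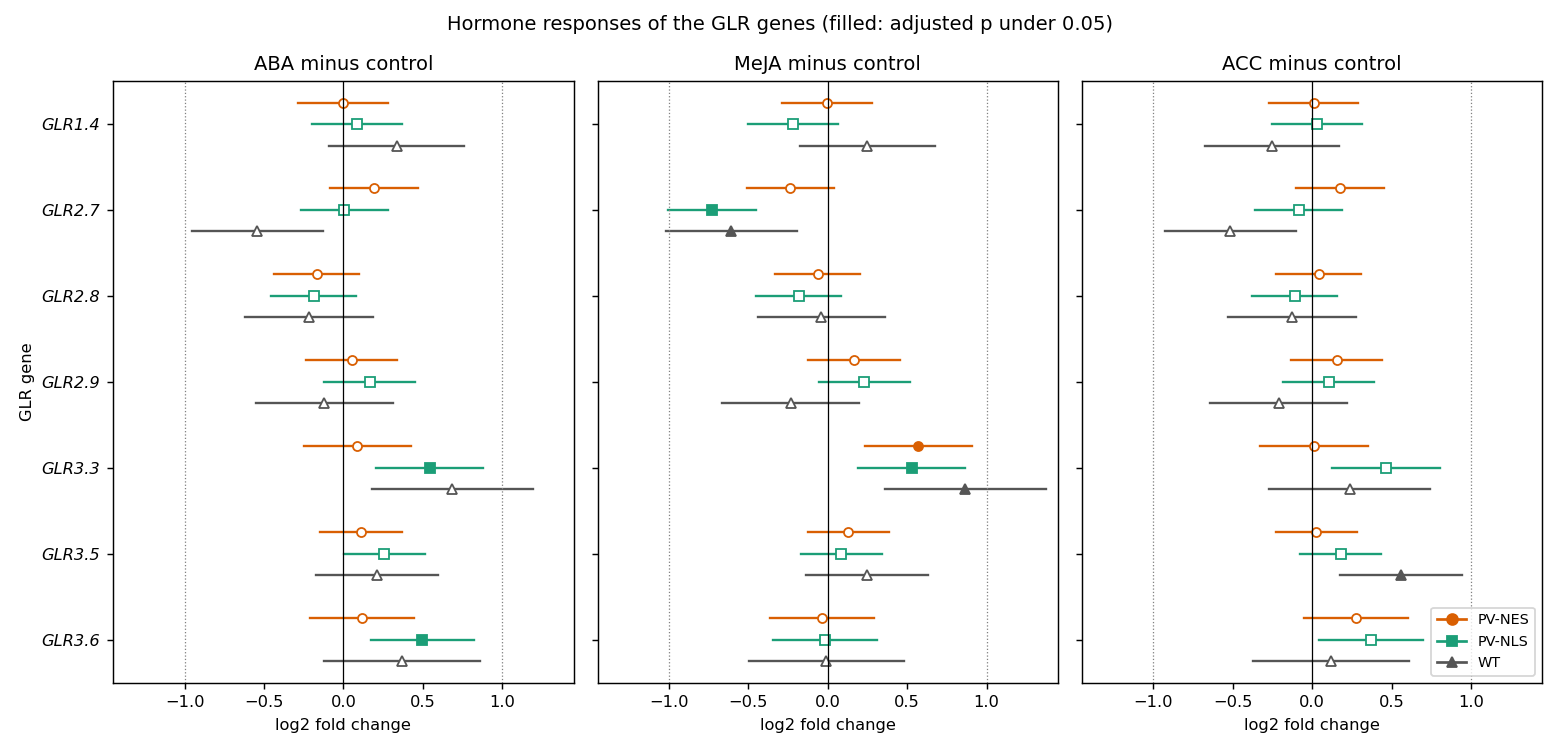
Log2 fold change (x axis) of each GLR gene (y axis) after ABA, MeJA and ACC, each against the control of the same genotype, with 95% intervals from limma; filled symbols mark an adjusted p under 0.05 and dotted lines a 2-fold change. *GLR3.3* was higher after MeJA in all 3 genotypes and no estimate reached a dotted line.

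MeJA raised *GLR3.3* in all 3 genotypes. Its log2 signals after MeJA were 5.73, 5.78 and 6.43 in *PV-NES* lines 1, 7 and 11, against 5.54, 5.38 and 5.32 in the controls of these lines. In *PV-NLS* lines 4, 5 and 8 they were 5.68, 5.41 and 5.95 after MeJA, against 5.01, 5.33 and 5.10 in the controls, and in WT 6.00 after MeJA, against 4.98 and 5.29 in the controls. MeJA and control arrays did not overlap in any genotype, and 6 of the 7 MeJA arrays lay above all 8 controls, line 5 being the exception. How large a share of all genes separates in this way was not counted. The 6 transgenic lines all moved up, by 0.08 in *PV-NLS* line 5 to 1.11 in *PV-NES* line 11.

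The fitted log2 fold change of *GLR3.3* after MeJA was 0.57 ± 0.16 (SE) in *PV-NES*, 0.53 ± 0.16 in *PV-NLS* and 0.87 ± 0.25 in WT, or 48.4%, 44.2% and 82.2% more signal (limma, adjusted p = 0.0132, 0.0161 and 0.0225). Each of these calls was lost without a particular line or control. Without line 11 the change in *PV-NES* was 0.30 (adjusted p = 0.307), without line 4 or line 8 that in *PV-NLS* was 0.46 or 0.37 (adjusted p = 0.132 and 0.176), and without the first WT control that in WT was 0.71 (adjusted p = 0.147). With the compared arrays alone in the fit, *PV-NES* (adjusted p = 0.0515) and WT (0.317) missed the threshold, and by the t-test of the methods all 3 did. The mean over the 3 genotypes, 0.65 ± 0.11 (adjusted p = 5.49e-05), kept its call when each line or control was left out, with values between 0.56 and 0.73 and an adjusted p of at most 7.09e-04. It exceeded the mean MeJA response of 95.2% of all genes.

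*GLR2.7* moved the other way after MeJA. Its signals were 2.41, 2.71 and 2.70 in *PV-NES* lines 1, 7 and 11 after MeJA, against 2.74, 2.77 and 3.02 in the controls. In *PV-NLS* lines 4, 5 and 8 they were 2.47, 2.52 and 2.59 after MeJA, against 3.23, 3.35 and 3.19 in the controls, and in WT 2.97 after MeJA, against 3.65 and 3.51 in the controls. The 2 sets of arrays did not overlap within any genotype, and 6 of the 7 MeJA arrays lay below all 8 controls, that of WT being the exception. Here too the share of all genes that separate so was not counted. All 6 lines moved down, by 0.06 in *PV-NES* line 7 to 0.83 in *PV-NLS* line 5.

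*GLR2.7* fell by 0.73 ± 0.13 on the log2 scale after MeJA in *PV-NLS* (limma, adjusted p = 2.28e-04), a change of -39.6% in signal. In WT it fell by 0.61 ± 0.20 (adjusted p = 0.0497). In *PV-NES* its change was -0.24 ± 0.13 with an adjusted p of 0.221, and the 95% interval ran from -0.51 to 0.04. The *PV-NES* controls, at 2.74 to 3.02, already lay little above the highest signals of *GLR2.8* (2.57) and *GLR2.9* (2.64). Whether this dim signal made the fall in *PV-NES* smaller was not tested. The call in *PV-NLS* held in each of the 16 alternatives run, among them the t-test of the methods, while that in WT was lost when any single line or control other than *PV-NLS* line 8 was left out (adjusted p between 0.0505 and 0.196). The mean over the genotypes was -0.52 ± 0.09 (adjusted p = 7.00e-05), between -0.55 and -0.50 with each line or control left out, and lower than that of 91.1% of all genes.

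The other 5 genes did not pass after MeJA in any genotype. *GLR3.6*, which acts with *GLR3.3* in leaf wound signals, had log2 fold changes of -0.04 in *PV-NES*, -0.02 in *PV-NLS* and -0.01 in WT, with 95% intervals of -0.36 to 0.29, -0.34 to 0.31 and -0.50 to 0.48. *GLR3.5* had values between 0.09 and 0.25, *GLR1.4* between -0.22 and 0.25, *GLR2.8* between -0.18 and -0.04 and *GLR2.9* between -0.23 and 0.23. The 7 genes had median changes of -0.0025 in *PV-NES*, -0.02 in *PV-NLS* and -0.01 in WT, beside 0.03, 0.04 and 0.04 for all genes. Of the 7 genes, 1 passed in *PV-NES*, 2 in *PV-NLS* and 2 in WT, where 23.8%, 32.7% and 12.1% of all genes did, and 2 of 7 passed in the mean over the genotypes, where 44.1% of all genes did. With so large a share of all genes called, these counts say nothing particular of the GLR family.

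Other genes moved in the same MeJA arrays. The summed signal of the 5 measured shoot markers was 10616 to 14905 after MeJA, against 14930 to 17767 in the controls, so that the 2 sets did not overlap. The antenna protein gene *LHCB4.3* fell by 1.97 ± 0.18 on the log2 scale in the mean over the genotypes (limma, adjusted p = 9.19e-09), and 4 of the 5 markers passed downwards in that mean. The summed signal of the 5 measured root markers was 4056 to 5298 after MeJA, against 2825 to 4174 in the controls, and 4 of the 5 passed upwards. This sum is nearly all *PYK10*, with a mean log2 signal of 11.8, against 4.36 to 6.06 for the other root markers. The 3 measured guard cell lineage markers summed to 56.4 to 73.3 after MeJA, against 67.9 to 83.5 in the controls, with 2 passing downwards. Their part in the values of *GLR3.3* and *GLR2.7* was not tested. In whole seedlings a change in the share of a cell type and a change in RNA per cell cannot be told apart.

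**Figure D3:**
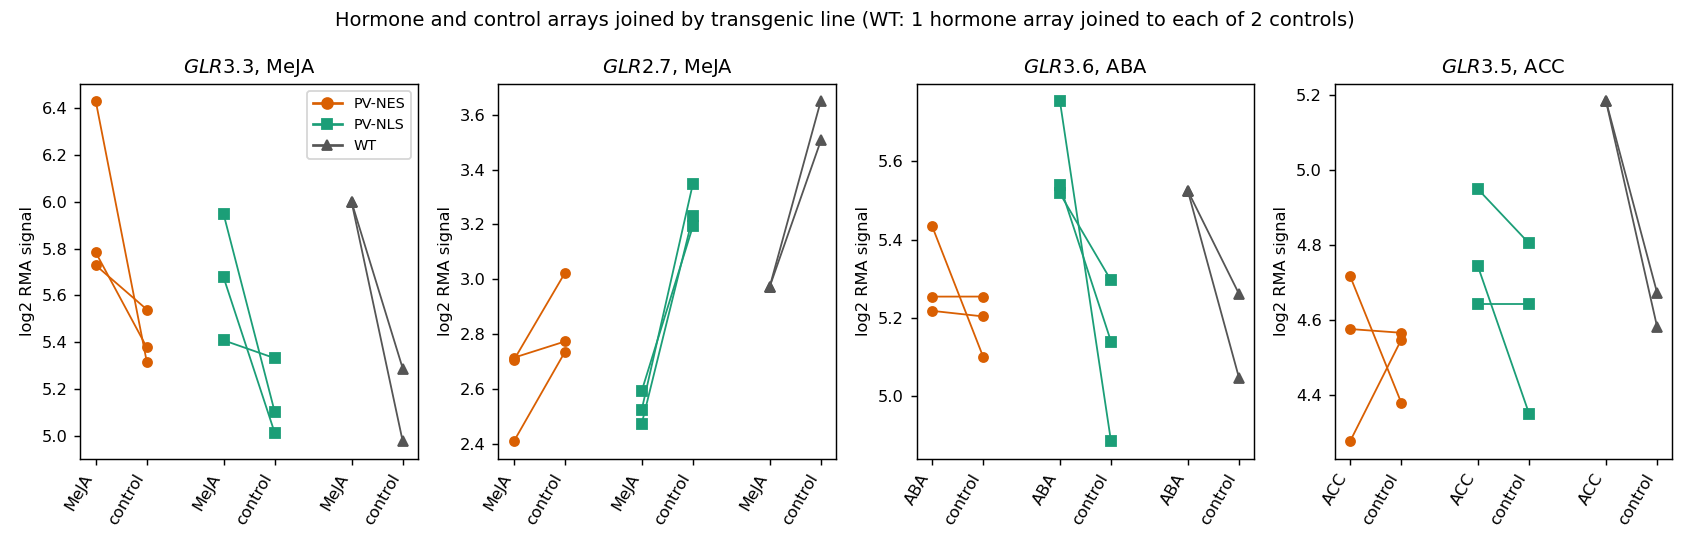
Log2 RMA signal (y axis) of *GLR3.3* and *GLR2.7* after MeJA, *GLR3.6* after ABA and *GLR3.5* after ACC, with the hormone array at the left and the control array at the right of each line, and the single WT hormone array joined to both WT controls. All 6 lines were higher for *GLR3.3* and lower for *GLR2.7* after MeJA, while the lines spread for *GLR3.5* after ACC.

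After ABA, *GLR3.3* and *GLR3.6* were the GLR genes that passed, both upwards and, among the single genotypes, in *PV-NLS* alone. *GLR3.3* had 5.59, 5.37 and 5.54 in *PV-NES* lines 1, 7 and 11 after ABA, against 5.54, 5.38 and 5.32 in the controls. It had 5.73, 5.58 and 5.76 in *PV-NLS* lines 4, 5 and 8 after ABA, against 5.01, 5.33 and 5.10 in the controls, and 5.82 in WT after ABA, against 4.98 and 5.29 in the controls. ABA arrays were above the controls without overlap in *PV-NLS* and overlapped them in *PV-NES*, and the single WT array was above its 2 controls. With 1 array against 2, WT avoids overlap easily, as it did for *GLR1.4* after each hormone, where no test passed. The share of all genes that separate so was not counted.

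The fitted change of *GLR3.3* after ABA was 0.54 ± 0.16 in *PV-NLS* (limma, adjusted p = 0.0177) and 0.69 ± 0.25 in WT, where it missed the threshold (adjusted p = 0.0748). In *PV-NES* it was 0.09 ± 0.16 (adjusted p = 0.815). The call in *PV-NLS* was lost without line 4 (0.45, adjusted p = 0.183) or line 8 (0.48, adjusted p = 0.107). The mean over the genotypes, 0.44 ± 0.11 (adjusted p = 0.00385), held with each line or control left out, between 0.39 and 0.49 with an adjusted p of at most 0.0220. The ABA and MeJA responses share their control arrays.

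*GLR3.6* had 5.25, 5.22 and 5.44 in *PV-NES* lines 1, 7 and 11 after ABA, against 5.25, 5.20 and 5.10 in the controls. It had 5.52, 5.54 and 5.75 in *PV-NLS* lines 4, 5 and 8 after ABA, against 5.30, 5.14 and 4.88 in the controls, and 5.52 in WT after ABA, against 5.05 and 5.26 in the controls. Again the arrays of *PV-NLS* and WT did not overlap their controls and those of *PV-NES* did. For *GLR3.6* as well, the share of all genes that separate so was not counted, and a lone WT array avoids overlap easily. The change was 0.50 ± 0.16 in *PV-NLS* (limma, adjusted p = 0.0238), 0.37 ± 0.24 in WT (adjusted p = 0.364), while *PV-NES* had 0.12 ± 0.16 (adjusted p = 0.735). Without line 8 the change in *PV-NLS* was 0.31 (adjusted p = 0.254), and without line 5 it was 0.55 (adjusted p = 0.0633). The mean over the genotypes was 0.33 ± 0.11 (adjusted p = 0.0217), and it missed the threshold without *PV-NLS* line 8 (0.27, adjusted p = 0.0599) or the first WT control (0.29, adjusted p = 0.0605).

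The other GLR genes did not pass after ABA. *GLR3.5*, a gene of guard cells and seeds, had changes of 0.11 in *PV-NES*, 0.26 in *PV-NLS* and 0.21 in WT, and a mean of 0.19 ± 0.08 (limma, adjusted p = 0.0836). *GLR2.7* had 0.19 in *PV-NES*, 0.01 in *PV-NLS* and -0.54 in WT. *GLR2.8* had -0.17, -0.19 and -0.22 in *PV-NES*, *PV-NLS* and WT, with 95% intervals that all included 0. The numbers that passed were 0 of 7 in *PV-NES*, 2 of 7 in *PV-NLS* and 0 of 7 in WT, beside 11.4%, 25% and 11% of all genes. With an unadjusted p under 0.05 there were 0 of 7 in *PV-NES*, 3 in *PV-NLS* and 2 in WT, beside 23.1%, 37% and 24.7% of all genes. In the mean over the genotypes 2 of 7 passed, beside 34.3% of all genes, and the median change was 0.14 for the 7 genes and 0.02 for all genes. In these ABA arrays 2 of the 5 root markers passed upwards and 1 downwards in the mean, with sums of 2889 to 3533 after ABA, against 2825 to 4174 in the controls, and the shoot marker sums of 15687 to 16923 after ABA lay within those of the controls, although 1 of the 5 shoot markers passed upwards and 2 downwards in the mean. The root marker that passed downwards was *PYK10* (log2 fold change -0.22), which dominates the root sum, while *EXPA7* (1.16) and *GH9C1* (1.01) passed upwards. The guard cell lineage markers summed to 53.5 to 68.6 after ABA, against 67.9 to 83.5 in the controls, and 1 of the 3 passed downwards. Their part in these values was not tested.

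After ACC, *GLR3.5* was the only GLR gene with a call. Its signals were 4.72, 4.27 and 4.58 in *PV-NES* lines 1, 7 and 11 after ACC, against 4.38, 4.55 and 4.57 in the controls. In *PV-NLS* lines 4, 5 and 8 they were 4.95, 4.64 and 4.74 after ACC, against 4.80, 4.64 and 4.35 in the controls, and in WT 5.19 after ACC, against 4.58 and 4.67 in the controls. The WT value was the highest of all 29 arrays, whereas ACC and control arrays overlapped in both transgenic genotypes.

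The change of *GLR3.5* after ACC was 0.03 ± 0.12 in *PV-NES* (limma, adjusted p = 0.941), 0.18 ± 0.12 in *PV-NLS* (adjusted p = 0.364) and 0.56 ± 0.19 in WT (adjusted p = 0.0459). The WT call rests on 1 treated array. It was lost without the first WT control (0.51, adjusted p = 0.181), the second WT control (0.60, adjusted p = 0.0540), *PV-NES* line 11 (adjusted p = 0.0821), *PV-NLS* line 4 (adjusted p = 0.0502) or line 5 (adjusted p = 0.0621), where the last 3 enter only through the shared variance. The mean over the genotypes, 0.25 ± 0.08 (adjusted p = 0.0267), was lost without the first WT control (0.24, adjusted p = 0.0637), *PV-NES* line 1 (0.20, adjusted p = 0.0895) or line 11 (0.26, adjusted p = 0.0659), or *PV-NLS* line 8 (0.22, adjusted p = 0.0677).

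*GLR3.6* and *GLR3.3* had means of like size after ACC that missed the threshold. *GLR3.6* averaged 0.26 ± 0.11 (limma, adjusted p = 0.0791) and was higher in 6 of 6 lines, by 0.02 to 0.76. *GLR3.3* averaged 0.24 ± 0.11 (adjusted p = 0.116), with 0.01 in *PV-NES*, 0.46 in *PV-NLS* and 0.24 in WT. The value in *PV-NLS* had an adjusted p of 0.0629, or 0.0435 when its own arrays alone were fitted. Of the 7 genes, 0 passed in *PV-NES*, 0 in *PV-NLS* and 1 in WT, beside 3.33%, 12.8% and 14.1% of all genes, while 0, 2 and 2 had an unadjusted p under 0.05, beside 17.8%, 28% and 27.9% of all genes. The t-test of the methods called 0, and the share of all genes that it calls was not counted. In the mean over the genotypes 1 of 7 passed, beside 29.4% of all genes, and the medians were 0.02 for the 7 genes and 0.03 for all genes. In the same arrays the shoot markers summed to 12109 to 16796 after ACC, against 14930 to 17767 in the controls, the root markers to 3590 to 4009 after ACC, against 2825 to 4174 in the controls, and the guard cell lineage markers to 64.0 to 74.7 after ACC, against 67.9 to 83.5 in the controls, so that all 3 sums overlapped. The root sum again reflects mainly *PYK10*. In the means 3 shoot markers passed downwards and 1 root marker upwards. Their part in the value of *GLR3.5* was not tested.

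**Figure D4:**
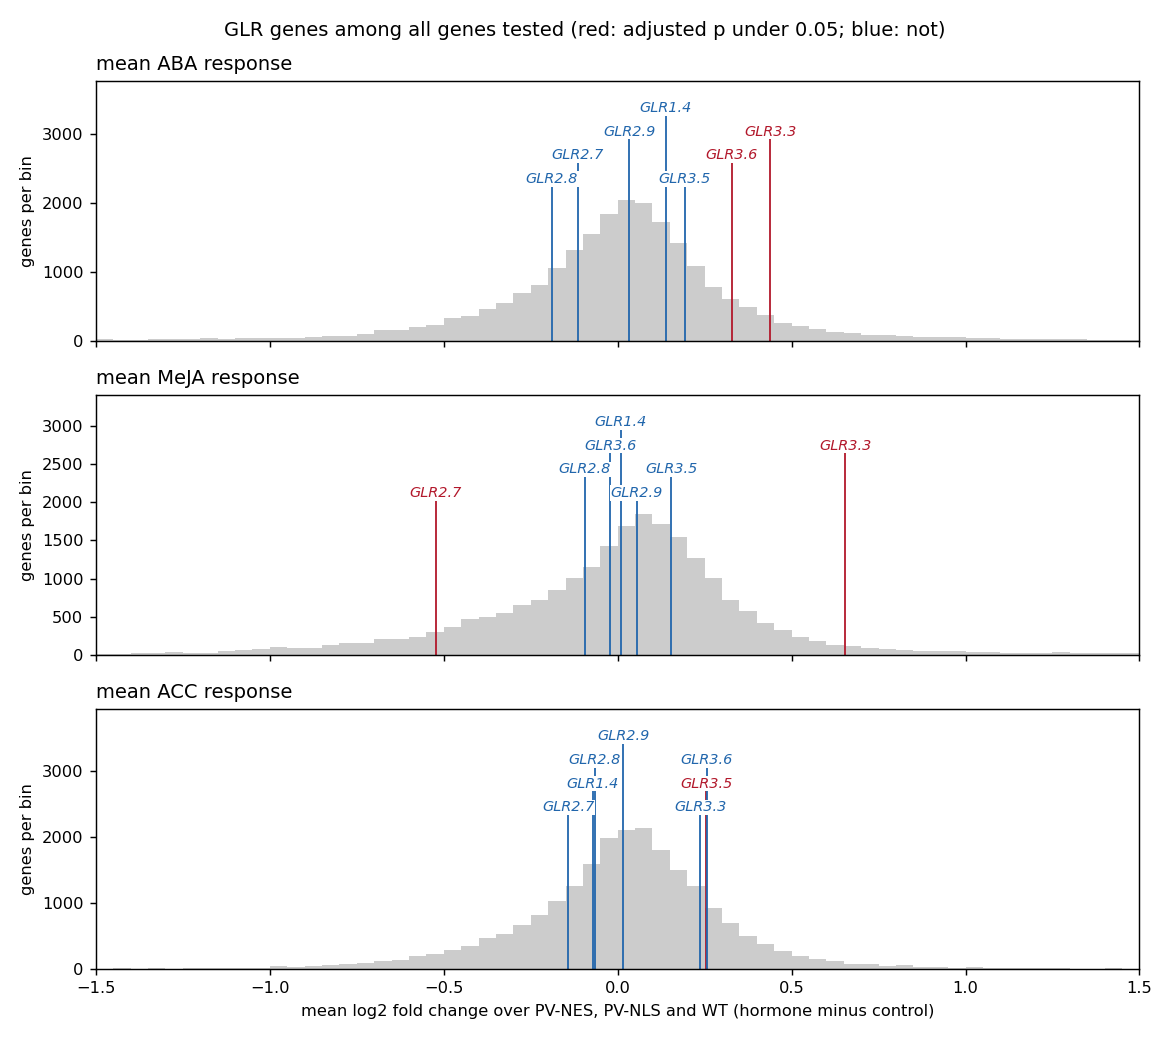
Number of genes (y axis) by mean log2 fold change over *PV-NES*, *PV-NLS* and WT (x axis, in bins of 0.05) after ABA, MeJA and ACC, with a line at each GLR gene, red where the adjusted p was under 0.05. *GLR3.3* at 0.65 and *GLR2.7* at -0.52 after MeJA lay in the flanks of the distribution, and most other GLR genes near its centre. Genes beyond 1.5 on either side, 305 after ABA, 483 after MeJA and 43 after ACC, are not drawn.

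The question of the study was whether Ca2+ in the cytosol or in the nucleus shapes hormone responses, which for the GLR genes is a test of differences between responses. None of the 42 differences of a response in *PV-NES* or *PV-NLS* from that in WT passed (limma, 4 with an unadjusted p under 0.05, beside 10.4% of such tests over all genes), nor did any of the 21 differences between *PV-NES* and *PV-NLS* (1 with an unadjusted p under 0.05, beside 7.78% over all genes). Among all genes the shares that passed were also low. They were 0.0266% for *PV-NES* minus WT, 0% for *PV-NLS* minus WT and 0% for *PV-NES* minus *PV-NLS* after ABA, 0%, 0% and 0% for the same contrasts after MeJA, and 1.15%, 1.9% and 0% after ACC.

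The intervals of these differences were wide. For *GLR3.3* after ABA, the response in *PV-NES* differed from that in WT by -0.60 on the log2 scale (95% interval -1.21 to 0.01, limma, adjusted p = 0.476) and from that in *PV-NLS* by -0.45 (-0.93 to 0.02, adjusted p = 0.480). After MeJA the same differences were -0.30 (-0.91 to 0.31) and 0.04 (-0.44 to 0.52). For *GLR3.6* after ABA, *PV-NES* differed from WT by -0.25 (-0.84 to 0.33) and from *PV-NLS* by -0.38 (-0.84 to 0.08). The data thus leave room for differences as large as the responses themselves, and a response called in *PV-NLS* and not in *PV-NES* is not shown to differ between them.

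The intervals that lay clear of 0 were on *GLR2.7* and *GLR3.5*. For *GLR2.7*, *PV-NES* minus WT was 0.73 (0.24 to 1.23) after ABA and 0.69 (0.19 to 1.19) after ACC, *PV-NLS* minus WT was 0.55 (0.05 to 1.05) after ABA, and *PV-NES* minus *PV-NLS* was 0.49 (0.10 to 0.88) after MeJA, with adjusted p of 0.240, 0.157, 1.00 and 0.861 by limma. For *GLR3.5*, *PV-NES* minus WT after ACC was -0.53 (-0.99 to -0.07, adjusted p = 0.248).

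The controls enter all of these *GLR2.7* values, and its MeJA signals in the transgenic lines were close to those of *GLR2.8* and *GLR2.9*. Without hormone, *GLR2.7* had signals of 2.74, 2.77 and 3.02 in the *PV-NES* lines. The *PV-NLS* lines had 3.23, 3.35 and 3.19, and the WT arrays 3.65 and 3.51. The 3 genotypes did not overlap, with *PV-NES* lowest and WT highest, but the share of all genes whose controls separate so was not counted. *PV-NES* minus WT was -0.74 ± 0.15 (95% interval -1.04 to -0.43), with an unadjusted p of 5.63e-05 and an adjusted p of 0.0908 by limma, and *PV-NLS* minus WT was -0.32 ± 0.15 (adjusted p = 0.766). *PV-NES* minus *PV-NLS* was -0.41 ± 0.13 (adjusted p = 0.461). Without *PV-NLS* line 8, which enters only through the shared variance, the first of these passed (adjusted p = 0.0326), and so did the falls of *GLR2.7* in WT after ABA (-0.54, adjusted p = 0.0419) and after ACC (-0.51, adjusted p = 0.0451), which had adjusted p of 0.0855 and 0.0905 with all arrays. The 3 WT responses of *GLR2.7*, after ABA, MeJA and ACC, share the same 2 control arrays.

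No other GLR gene had an unadjusted p under 0.05 between untreated genotypes (limma). *GLR2.9* came nearest, at -0.27 ± 0.16 for *PV-NLS* minus WT (adjusted p = 0.794) and -0.23 ± 0.16 for *PV-NES* minus WT (adjusted p = 0.652). Over the 21 tests 0 passed (limma), and of all genes 0.00443% passed for *PV-NES* minus WT, 0% for *PV-NLS* minus WT and 0% for *PV-NES* minus *PV-NLS*. The 3 tests with an unadjusted p under 0.05, all on *GLR2.7*, stand beside 10.5%, 6.37% and 8.17% of all genes with such a p in these contrasts. *GLR3.3* was 0.28 ± 0.18 higher in *PV-NES* than in WT (adjusted p = 0.642), *GLR3.6* 0.03 ± 0.18 (adjusted p = 0.977) and *GLR1.4* 0.0047 ± 0.15 (adjusted p = 0.995).

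The order of the 12 group means differed from gene to gene. For *GLR3.3* it ran downwards from WT with MeJA (6.00) and *PV-NES* with MeJA (5.98), over WT with ABA (5.82), *PV-NLS* with ABA (5.69), MeJA (5.68) and ACC (5.61), *PV-NES* with ABA (5.50) and ACC (5.42), *PV-NES* control (5.41) and WT with ACC (5.37), to *PV-NLS* control (5.15) and WT control (5.13). Only the step between WT with ACC and *PV-NLS* control exceeded the pooled within-group SD, 0.21. For *GLR2.7* the untreated WT (3.58) was highest and *PV-NES* and *PV-NLS* with MeJA (2.61 and 2.53) were lowest, and 9 of 11 steps were under the SD of 0.16. For *GLR3.5*, WT with ACC stood highest and *PV-NES* control (4.50) lowest, with 10 of 11 steps under the SD of 0.15. *GLR3.6* was highest in *PV-NLS* with ABA (5.60) and lowest in *PV-NLS* with MeJA (5.09). For *GLR3.6*, *GLR1.4*, *GLR2.8* and *GLR2.9* all 11 steps were under the SD. The SD is that of single arrays and the steps lie between neighbouring means, so they do not test whether groups differ.

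*GLR1.4*, *GLR2.8* and *GLR2.9* passed in none of their hormone tests. *GLR1.4* lay between 3.01, in *PV-NLS* line 5 with MeJA, and 3.92, in WT with ABA. *GLR2.8* lay between 1.99 and 2.57 and *GLR2.9* between 1.93 and 2.64. *GLR2.9* was higher after MeJA in 6 of 6 lines, by 0.05 to 0.50, yet lower in WT (-0.23 ± 0.21), and its mean change was 0.05 ± 0.10 (limma, adjusted p = 0.673). *GLR2.8* fell short of the threshold in its mean ABA response of -0.19 ± 0.09 (adjusted p = 0.105), which passed after a further quantile normalisation (adjusted p = 0.0336).

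The GLR genes did not vary as a block. Over the 29 arrays, which share their hormone treatments and normalisation, the 21 pairs had Pearson correlations between -0.46 and 0.35 with a median of 0.13. The lowest was that of *GLR2.7* with *GLR3.3*, which was 0.05 once group means were subtracted, and the highest that of *GLR3.5* with *GLR3.6*. The 3 neighbouring genes had r of 0.13 (*GLR2.7* with *GLR2.8*), -0.16 (*GLR2.7* with *GLR2.9*) and -0.27 (*GLR2.8* with *GLR2.9*), and after subtraction of group means 0.07, -0.24 and -0.33. Within groups the highest correlation was 0.48, of *GLR1.4* with *GLR3.3*.

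Among the 5900 genes named alone and brighter than the median gene, those most like each GLR gene over the 29 arrays are known in the annotation by locus tag only. They were AT2G25450 (r = 0.82), AT5G53050 (0.82) and AT5G49950 (0.80) for *GLR3.3*, and AT5G24570 (0.80), AT5G38980 (0.76) and AT1G27120 (0.76) for *GLR2.7*. For *GLR3.6* they were AT5G11980 (0.76), AT1G76140 (0.74) and AT4G17140 (0.73), and for *GLR3.5* AT4G27340 (0.74), AT1G01970 (0.71) and AT1G68490 (0.70). *GLR1.4* was most like AT3G26950 (0.68), *GLR2.8* like AT3G05730 (0.57) and *GLR2.9* like AT1G72480 (0.55). These are the highest among all candidates over arrays that share treatments, and describe these arrays only.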

How the data were processed

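RNA of 29 seedling samples was hybridised to Affymetrix ATH1 arrays. Before deposit the authors ran RMA over all arrays (background correction, normalisation and a summary for every probe set), and the deposited numbers are log2 signals. The RMA version is not given in the sources used here. They were used without further normalisation. Base 2 was inferred from the spread of the values (lowest 1.35, highest 13.3). The labels give 5 days of treatment also for ACC, which the paper does not describe.

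The table holds 22810 probe sets, of which the 64 controls of the array were dropped. The annotation names 1 gene for 13513 probe sets, several for 503 and none for 8730, and the last 2 kinds were tested under their own ID. A gene with several probe sets (146 genes) was represented by the brightest, which left 22589 genes. Of the 13356 genes named alone, 13286 matched RefSeq by Entrez ID.

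The model, in limma 3.58.1 under R 4.3.3, had a mean for each of the 12 groups and a single variance for each gene (17 residual and 5.94 prior degrees of freedom). A lone WT hormone array is assumed to vary like the others, and the number of arrays limits the precision. The Benjamini-Hochberg adjustment ran over all genes within a comparison. A gene passed at an adjusted p under 0.05, and past 2-fold also needed a log2 fold change beyond 1. Intervals are at 95%. The mean response gives each genotype equal weight. The fit was tested on simulated data.

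Replicate numbers stand for transgenic lines, so they pair hormone and control arrays. Over all genes, deviations from the group means were correlated between arrays of 1 line (18 pairs a genotype), with median r = 0.0079 for *PV-NES* and 0.11 for *PV-NLS*, and between arrays of different lines, with median r = -0.02 and -0.06. WT numbers pair nothing. The labels name no batch.

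The members, lists and tests were chosen with earlier results of these data known. Named are every GLR gene found by the rule, up to 4 genes of the lists that passed in the most comparisons, and the genes most correlated with each GLR gene (3 for a GLR gene with a call, otherwise 1). Of the lists, 0 of 89 calcium channel and transporter symbols, 0 of 41 for glutamate and glutamine metabolism and 0 of 48 amino acid transporters were named alone, and 3 of 35 jasmonate, 5 of 30 shoot, 5 of 40 root and 3 of 16 guard cell lineage symbols were. Protein and promoter sequences were not analysed here. Alternatives were each array or line left out, a line block, other fits, filters and probe set rules, further normalisation, and the t-test of the methods.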

Additional observations from a re-analysis of the deposited data

How the results depend on the processing

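Across the 17 alternatives, none of the 13 calls on single genes turned its direction. In 170 cases an alternative kept such a call, in 39 it lost it, and 5 calls were gained. With each line or WT control left out in turn, the number of calls on GLR genes was 1 to 2 after ABA (2 with all arrays), 3 to 4 after MeJA (5), 0 to 2 after ACC (1), 0 to 1 between untreated genotypes (0) and 3 to 5 in the means over genotypes (5), and 0 to 0 for differences from WT and between *PV-NES* and *PV-NLS*. With only the compared arrays in the fit, 2 passed after MeJA. With genes brighter than the median gene only, which leaves 1 GLR gene, *GLR3.3*, 1 passed after ABA, 3 after MeJA, 0 after ACC and 2 in the means. With a variance trend and robust fit 0 passed after ACC. The t-test of the methods gave 0 after ABA, 1 after MeJA and 0 after ACC after Benjamini-Hochberg adjustment, and 2, 2 and 1 at an unadjusted p under 0.05. Each count is out of 21 tests on GLR genes. The share of all genes that this t-test calls was not counted, so the counts cannot be set against it. The t-test has 1 residual degree of freedom in WT. The paper names Student's t-test, yet its counts of genes past 2-fold after ABA and MeJA lay close to those of the limma fit.

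With line as a block, the paired fit gave 2 calls after ABA, 5 after MeJA, 1 after ACC, 0 for differences from WT, 0 between *PV-NES* and *PV-NLS*, 0 between untreated genotypes and 5 in the means, and changed no call on a GLR gene. The low signal of *GLR2.8* and *GLR2.9* limits what these arrays can show of them. *GLR2.7* after MeJA was nearly as dim in the transgenic lines, which limits how far its falls can be compared.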

Other observations

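Other GLR probe sets lie outside the rule. *GLR1.2*, which the annotation lists as ATGLR1.2, had log2 signals between 2.11 and 2.96 with a median of 2.54, and passed in 0 of 24 comparisons (limma, 0 with an unadjusted p under 0.05, smallest adjusted p = 0.354). A probe set shared by *GLR2.2* and *GLR2.3*, whose transcripts it cannot tell apart, had signals between 2.00 and 2.80 with a median of 2.15. It passed in 0 of 24 comparisons (1 with an unadjusted p under 0.05, smallest adjusted p = 0.0851), and its highest value was in *PV-NLS* line 5 with MeJA, the array on which *GLR1.4* was lowest.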
